A study of Arabidopsis thaliana with 27 samples.

Results

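The apical-basal axis of the plant embryo is laid down early: the apical part gives rise to the cotyledons and the shoot meristem, and the basal part gives rise to the hypocotyl and the root pole. At the globular stage the embryo proper is a ball of cells without organs, at the heart stage the cotyledons emerge, and at the torpedo stage cotyledons and embryonic root are elongated organs. Auxin, made and transported directionally, and families of transcription factors such as the YABBY and NGATHA factors of lateral organs and the PLETHORA and JACKDAW factors of the root are known to act along this axis.

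The measurement examined here was how far the difference between the apical and the basal tissue changed between the torpedo and the globular stage. For each probe set, the apical minus basal difference in torpedo embryos was set against the same difference in globular embryos, so a positive change means relatively more signal at the apical pole at the torpedo stage, and a negative change means relatively more at the basal pole. It used 12 of the 27 Affymetrix ATH1 arrays in the series, 3 in each of 4 groups. The groups were torpedo apical tissue, torpedo basal tissue, globular apical tissue and globular basal tissue, all laser-dissected from Arabidopsis thaliana Col-0, stock N1092, grown on compost in a growth room under long days. The labels give no mutation and no treatment for any group. The submitters' growth notes for 1 array, globular apical replicate 1, differ from those of the other 11 in humidity and add a temperature and a cold stratification. Nothing in the labels says which plants or embryos a capture came from, so p-values measure the spread between arrays, which may be technical. Each signal is a linear probe set intensity that the authors scaled to a trimmed mean of about 100 per array, and differences are of log2(signal + 10), a scale on which dim probe sets move less than their signals do.

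The change passed the threshold at 3 of the 17784 probe sets tested (0.0169% called), of which 1 was positive (0.00562%) and 2 were negative (0.0112%), by limma's moderated test with Benjamini-Hochberg adjustment at 0.05. 1 of the 3 has a gene name in the platform's gene table: SDT, the spermidine disinapoyl transferase, which attaches sinapic acid groups to the polyamine spermidine. SDT signals were 2.34, 16.7 and 18.3 in torpedo apical tissue, against 513, 854 and 458 in torpedo basal tissue. They were 24.2, 10.1 and 41.4 in globular apical tissue, against 11.8, 17.3 and 8.4 in globular basal tissue. The torpedo poles did not overlap and the basal arrays were the bright ones, while the globular arrays of both poles were all dim and overlapped. The apical minus basal difference was -4.82 at the torpedo stage and 0.56 at the globular stage, a change of -5.39 (SE 0.79, adjusted p = 0.0358). All globular signals and the torpedo apical ones were at or below 41.4, so the size of this change depends on the added constant: it was -6.62 with a constant of 1 and -3.61 with one of 50. In bulk tissue, fewer cells of a type and less RNA per cell cannot be told apart.

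The other 2 probe sets have no gene in the table used here and are given by their identifiers. Probe set 251162_at had signals of 373, 217 and 415 in torpedo apical tissue, against 4.25, 11.1 and 5.31 in torpedo basal tissue. Its signals were 4.6, 6 and 15.6 in globular apical tissue, against 15.2, 64.7 and 19.2 in globular basal tissue. It was bright in torpedo apical tissue alone, with no overlap between the torpedo poles, and its globular poles overlapped. Its difference was 4.32 at the torpedo and -1.07 at the globular stage, a change of 5.39 (SE 0.80, adjusted p = 0.0358). Probe set 263775_at had signals of 8.63, 23.7 and 4.05 in torpedo apical tissue, against 142, 1152 and 174 in torpedo basal tissue. Its signals were 1123, 70.1 and 666 in globular apical tissue, against 1.7, 1.2 and 7.4 in globular basal tissue. Both stages separated without overlap and in opposite directions, basal at the torpedo stage and apical at the globular stage. Its difference was -3.95 at the torpedo and 4.91 at the globular stage, a change of -8.85 (SE 1.3, adjusted p = 0.0358), the largest in size among the 17784. The size of both changes depends on the added constant too. With constants of 1 and 50, the change was -11.5 and -5.72 for 263775_at, and 7.14 and 3.18 for 251162_at.

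These calls rest on few arrays. When each of the 12 arrays was left out in turn, SDT and 251162_at passed in 2 runs, those without torpedo basal replicate 5 and without globular basal replicate 2, and missed the threshold in the other 10. The adjusted p in those 10 runs was 0.0515 to 0.274 for SDT and 0.0910 to 0.303 for 251162_at. Probe set 263775_at passed in 3 runs, those 2 and the one without globular apical replicate 2, and its adjusted p was 0.0910 to 0.289 in the other 9. Over the same runs the change stayed between -5.74 and -5.0 for SDT, between 4.90 and 5.69 for 251162_at, and between -10 and -7.92 for 263775_at. Some settings that kept all 12 arrays ended calls too. SDT missed with a constant of 1 (adjusted p = 0.204 in limma), quantile normalization (0.120), no filter (0.0771), a filter of 100 on at least 3 arrays (0.0938) and all 25 arrays in the fit (0.109). It missed by most with a replicate block (0.353). Probe set 251162_at missed under all the same settings, at 0.0771 to 0.353, the highest again with the replicate block. Probe set 263775_at missed under quantile normalization, median centring, a constant of 50, no filter and the stricter filter, at 0.0579 to 0.152.

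**Figure D1:**
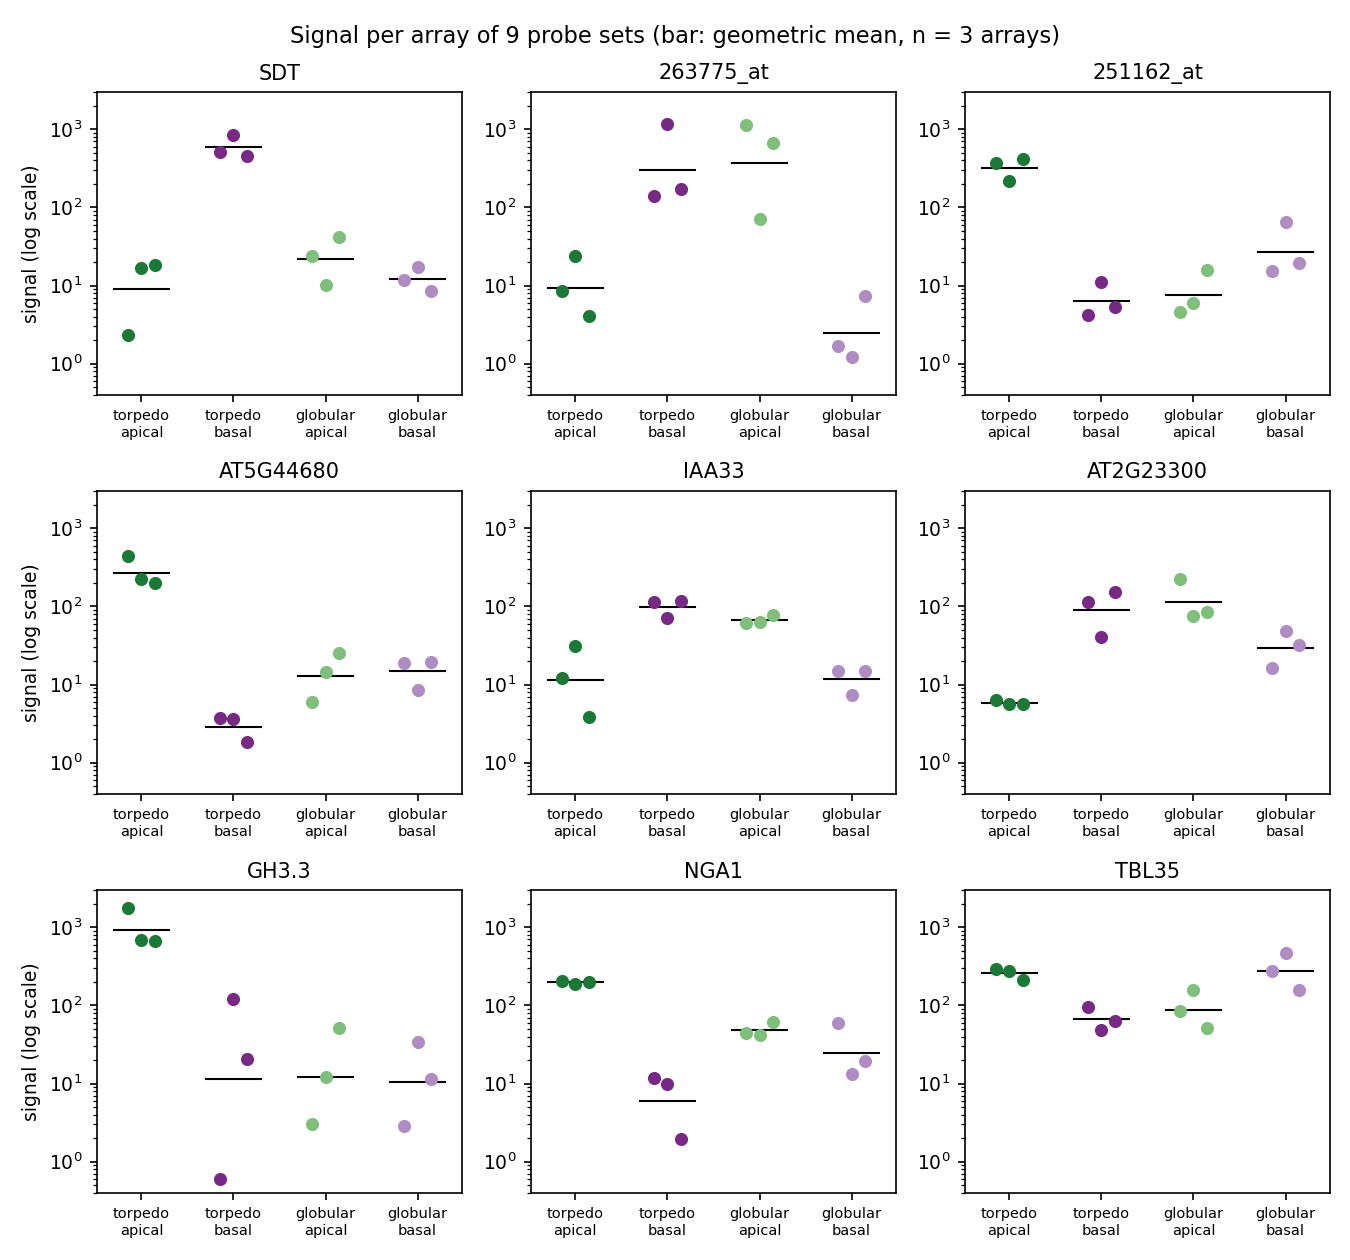
Signal of 9 probe sets on the 12 arrays, on a log axis, with torpedo apical, torpedo basal, globular apical and globular basal arrays from left to right. Points are arrays and bars are geometric means of 3 arrays. SDT is high in the 3 torpedo basal arrays, at 458 to 854, and at or below 41.4 in the other 9. The 3 NGA1 torpedo apical arrays lie between 190.5 and 208, above the other 9.

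Agreement between arrays differed from group to group. Within a group, arrays correlated at 0.841 to 0.866 in torpedo apical, 0.449 to 0.800 in torpedo basal, 0.599 to 0.678 in globular apical and 0.460 to 0.571 in globular basal tissue, and the lowest mean agreement with their own group was that of torpedo basal replicate 5 (0.449) and globular basal replicate 3 (0.465). Without both, no probe set passed in limma (1035 had an unadjusted p under 0.05), and the smallest adjusted p was 0.0775. The stages also differ in array quality measures. The geometric mean of the hybridization controls was 380 to 791 on torpedo and 879 to 8388 on globular arrays, and the actin 3′ minus 5′ log2 signal was 2.39 to 5.07 on torpedo and -1.75 to 0.51 on globular arrays. The median signal of the tested probe sets was 44.5 to 71.1 on torpedo arrays, highest on torpedo basal replicate 5, and 70.4 to 91.9 on globular arrays. The change of the pole difference was 0.05 (SE 1.18) for the log2 hybridization controls and 0.47 (SE 1.1) for the actin measure. It was 0.26 (SE 0.77) for the same measure of GAPDH and -0.22 (SE 0.89) for that of ubiquitin. Errors this wide cannot show whether the poles were balanced in these measures. Their part in the results was not tested. Tissue markers were read where the array table names them, which was 2 of 4 for cotyledon, 2 of 6 for root pole and 2 of 4 for shoot meristem. YAB3, YAB5, BBM and JKD were picked with their torpedo values known, so they describe the torpedo captures and do not check them. The sum of YAB3 and YAB5, cotyledon markers, was 466 to 848 in torpedo apical against 29.5 to 178 in torpedo basal tissue, and the sum of BBM and JKD, root pole markers, was 9.24 to 23.2 in torpedo apical against 148 to 656 in torpedo basal tissue. The torpedo poles separated in both sums, but the cotyledon sum was carried by YAB3: YAB5 overlapped, at 26.5 to 90.5 in torpedo apical against 1.47 to 95.4 in torpedo basal tissue. The sum of the shoot meristem markers LAS and CLV3 overlapped as well, at 57.1 to 90.9 in torpedo apical against 50.6 to 58.7 in torpedo basal tissue. At the globular stage the cotyledon and root pole sums overlapped between the poles, at 43.0 to 157 in globular apical and 21.6 to 303 in globular basal tissue for the cotyledon markers and at 45.5 to 234 in globular apical and 15.1 to 2861 in globular basal tissue for the root pole markers.

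Across all probe sets, 919 had a change with an unadjusted p under 0.05 (5.17%), 460 positive (2.59%) and 459 negative (2.58%), beside the 889 that the threshold itself gives. The change had a median of -0.07 and an SD of 1.16, and its standard error had a median of 0.99 (0.80 to 1.34 for the 10th to 90th percentile). The arrays' number, with 8 residual degrees of freedom, limits this precision. A change of over 2 in size was seen in 778 probe sets toward apical and 729 toward basal. Such changes were found in 651 of the 5928 brightest probe sets (10.98%), against 437 of the middle tercile (7.372%) and 419 of the dimmest tercile (7.068%). Pole differences at the 2 stages had a Pearson correlation of 0.0647 and a Spearman correlation of 0.0581 across the 17784 probe sets, given as a description, since probe sets of an array are not independent.

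**Figure D2:**
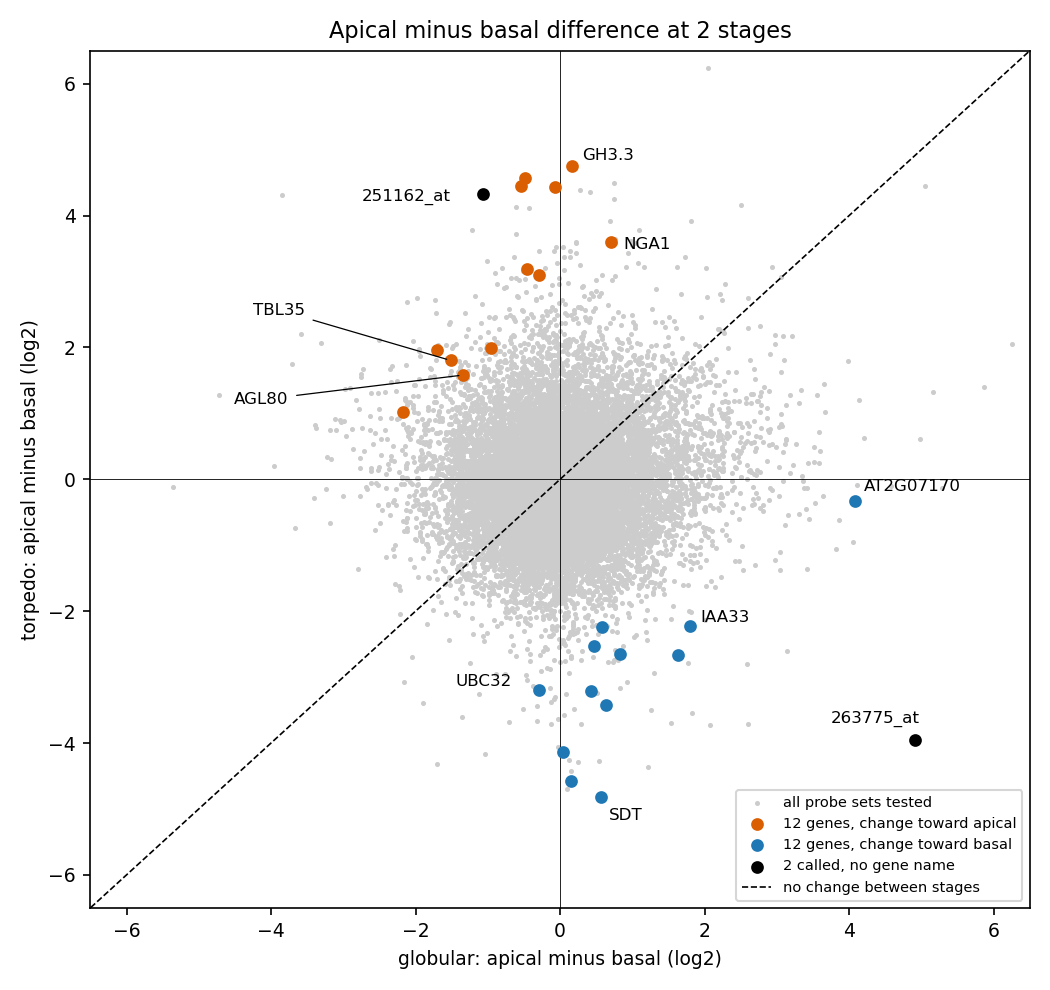
Apical minus basal difference (log2) at the globular stage on the x axis and at the torpedo stage on the y axis, for all 17784 probe sets tested. Points above the dashed line changed toward apical and points below it toward basal. Of the 24 coloured genes, 22 have the larger difference at the torpedo stage, beside 9670 of all 17784 probe sets. AT2G07170, at the right, is the basal-coloured point whose difference lies at the globular stage (4.09, against -0.33 at the torpedo stage).

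Below these calls, the single-gene probe sets with the smallest unadjusted p and a mean of at least 100 in 1 group were described, 12 in each direction. SDT is 1 of the basal 12, and none of the others passed. Toward apical, the gene with the smallest p was AT5G44680. Its signals were 441, 224 and 201 in torpedo apical tissue, against 3.69, 3.58 and 1.84 in torpedo basal tissue, and 6, 14.3 and 25.3 in globular apical tissue, against 18.8, 8.6 and 19.7 in globular basal tissue. It was bright in torpedo apical tissue alone. Its change was 4.51 (SE 0.77, adjusted p = 0.125). AT1G71695 had a similar layout, with 964, 323 and 219 in torpedo apical tissue, against 9.89, 15.6 and 0.915 in torpedo basal tissue, and a change of 5.06 (SE 1.00, adjusted p = 0.176). For AT1G68780, signals were 944, 832 and 672 in torpedo apical tissue, against 23.4, 112 and 3.13 in torpedo basal tissue, and 33.6, 13.4 and 20.1 in globular apical tissue, against 40.7, 10.9 and 80.5 in globular basal tissue. Its change was 4.99 (SE 1.06, adjusted p = 0.264). All 3 had torpedo poles that did not overlap and globular poles that did. AT5G44680 and AT1G68780 passed in limma when arrays were weighted by their quality (adjusted p = 0.0262 for each), and AT1G68780 passed without torpedo basal replicate 5 (adjusted p = 0.0430).

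4 of the 12 apical genes carry a symbol. GH3.3, an enzyme of the GH3 family that conjugates auxin to amino acids, had 1751, 686 and 668 in torpedo apical tissue, against 0.604, 120.2 and 20.8 in torpedo basal tissue. Its signals were 3, 12 and 51 in globular apical tissue, against 2.9, 34.5 and 11.6 in globular basal tissue. The torpedo apical arrays were the 3 brightest of the 12 and the globular arrays of both poles were dim and overlapped. The change was 4.59 (SE 1.21, adjusted p = 0.542). NGA1, a B3-domain factor of lateral organ growth, had 208, 190.5 and 197 in torpedo apical tissue, against 11.7, 9.8 and 1.94 in torpedo basal tissue, and 44.5, 42.4 and 61.5 in globular apical tissue, against 59.6, 13.1 and 19.3 in globular basal tissue. The torpedo poles separated and the globular poles overlapped, though globular apical arrays were also above 2 of the 3 globular basal arrays. Its change was 2.89 (SE 0.76, adjusted p = 0.542). TBL35, of a family of cell wall polysaccharide acetyltransferases, had 291, 277 and 212 in torpedo apical tissue, against 95.8, 47.9 and 63.6 in torpedo basal tissue, and 85.8, 155 and 52.1 in globular apical tissue, against 275, 466 and 159 in globular basal tissue. Here the poles separated at both stages in opposite directions, and the change was 3.32 (SE 0.85, adjusted p = 0.542).

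AGL80, a MADS-box factor known from the central cell of the ovule, had 121, 125 and 87.7 in torpedo apical tissue, against 47.4, 25.9 and 21.4 in torpedo basal tissue, and 24.4, 96.4 and 25 in globular apical tissue, against 136, 117 and 103 in globular basal tissue. It too was apical at the torpedo and basal at the globular stage without overlap, and its change was 2.92 (SE 0.79, adjusted p = 0.575). Markers of endosperm and seed coat were checked beside it. Of the 14 fixed, 3 were measured (AGL62, IKU2 and BAN), and their summed signal was 16.2 to 29.0 in torpedo apical, 10.5 to 67.6 in torpedo basal, 73.5 to 496 in globular apical and 72 to 149 in globular basal tissue. The torpedo poles overlapped in this sum, and so did the globular poles. BAN, the seed coat enzyme anthocyanidin reductase, supplied the highest value, 444.6 in globular apical replicate 1. The part of such tissue in the AGL80 result was not tested.

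The remaining apical genes carry a locus code alone, and no role is given for them. AT1G79420 had 173, 179 and 162 in torpedo apical tissue, against 8.77, 10.3 and 14.9 in torpedo basal tissue, with a change of 3.39 (SE 0.69, adjusted p = 0.206), and AT5G54630 had 291, 262 and 1273 in torpedo apical tissue, against 42, 39.1 and 44.6 in torpedo basal tissue, with a change of 3.64 (SE 0.91). AT3G22450, AT4G26370 and AT5G39960 had changes of 2.95, 3.2 and 3.67. In AT4G26370 the globular difference (-2.18) was larger in size than the torpedo difference (1.02).

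Toward basal, the symbols besides SDT were IAA33 and UBC32. IAA33, a member of the Aux/IAA family of auxin response proteins, had 12, 31.6 and 3.87 in torpedo apical tissue, against 115, 72.1 and 116 in torpedo basal tissue. Its signals were 60.7, 62.4 and 78.2 in globular apical tissue, against 15.1, 7.3 and 14.9 in globular basal tissue. The poles separated at both stages, basal at the torpedo stage and apical at the globular stage, with a change of -4.02 (SE 0.76, adjusted p = 0.176). UBC32, a ubiquitin-conjugating enzyme of the endoplasmic reticulum, had 27.8, 4.6 and 11.5 in torpedo apical tissue, against 193, 175 and 237 in torpedo basal tissue, and 70.7, 76.5 and 53.5 in globular apical tissue, against 118, 45.7 and 104 in globular basal tissue. Its torpedo apical arrays were the 3 dimmest of the 12, and its change was -2.91 (SE 0.77, adjusted p = 0.542).

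AT2G23300 separated the poles in opposite directions too, with 6.36, 5.56 and 5.63 in torpedo apical tissue, against 113, 40.9 and 153 in torpedo basal tissue, and 227, 75.8 and 84 in globular apical tissue, against 16.2, 48.4 and 32.1 in globular basal tissue. Its change was -4.30 (SE 0.85, adjusted p = 0.176), and it passed with array weights (-4.75, adjusted p = 0.0262). AT5G35940, AT2G26520 and AT1G54860 separated the torpedo poles alone, with the basal arrays the bright ones. AT5G35940 had 7.24, 6.53 and 22.3 in torpedo apical tissue, against 344, 735 and 181 in torpedo basal tissue, and a change of -4.18 (SE 0.85, adjusted p = 0.206). AT2G26520 had 1.73, 3.55 and 5.02 in torpedo apical tissue, against 72.3, 438 and 873 in torpedo basal tissue, and a change of -4.73 (SE 1.08, adjusted p = 0.383). AT1G54860 had 29.1, 2.8 and 51.5 in torpedo apical tissue, against 284, 347 and 225 in torpedo basal tissue, and a change of -3.64 (SE 0.84). All 3 had globular differences between 0.04 and 0.43.

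AT2G07170 differed from the others in its stage. It had 581, 294 and 569.8 in torpedo apical tissue, against 631, 453 and 693 in torpedo basal tissue, so the torpedo poles overlapped. Its signals were 873, 444 and 1291 in globular apical tissue, against 84.2, 24.1 and 23.1 in globular basal tissue, so the globular poles did not. Its change was -4.42 (SE 0.92, adjusted p = 0.226). The other basal genes were AT1G72850 (-2.99), AT4G11450 (-2.83), AT3G05190 (-3.47) and AT4G17350 (-4.05), and each had torpedo arrays that did not overlap.

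Over the 24 genes, the torpedo difference was the larger one in size in 22, beside 9670 of all 17784 probe sets. Torpedo arrays of the poles did not overlap in 22 (2090 of all), and globular arrays did not overlap in 7 (1539 of all). The globular difference was under 1 in size in 17, beside 14497 of all, so a small globular difference is not particular to these genes. The brightest of the 4 groups was torpedo apical in 10 of the 12 apical genes and torpedo basal in 10 of the 12 basal genes, beside 17.44% and 18.17% of all probe sets. Since the genes were ranked by the change itself, these counts describe its composition and support nothing. 7 of them (SDT, AT5G44680, AT1G71695, AT5G35940, AT2G26520, GH3.3 and NGA1) were also called between the torpedo poles in a limma fit of all 25 arrays that have a group. That fit called 9 of the 12319 single-gene probe sets it tested (0.0731%) and 19 of all 20890 (0.091%), and it holds the same torpedo arrays that ranked the genes, so nothing is read from the shared names. The other 2 were AT2G31390 and AT3G51660, whose changes of -3.11 (SE 0.95) and 2.63 (SE 0.95) did not pass.

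Arrays that the change did not use give a separate reading. At the heart stage, cotyledon minus root (3 arrays each) had the sign of the torpedo difference in 18 of the 24 genes (75%), beside 62.378% of the 513 probe sets with a torpedo difference over 2 in size and 45.2% of all probe sets. Separate torpedo captures of cotyledon and root (2 arrays each) had that sign in 19 of the 24 (79.167%), beside 52.242% and 54.8%. In the order globular, heart and torpedo, the difference was -0.55, 4.46 and 4.44 for AT1G68780. It was 0.63, -3.26 and -3.42 for AT4G17350, and -0.49, 2.05 and 4.57 for AT1G71695. Heart signals spread widely: AT1G68780 had 2126 ± 2888 in heart cotyledon and AT4G17350 4613 ± 5131 in heart root tissue (SD, n = 3 each). Whether the heart and torpedo differences of these genes are alike was not tested. For SDT the difference was 0.56, -1.24 and -4.82, and for GH3.3 0.16, 0.78 and 4.75, with heart values nearer to the globular ones. UBC32 and AGL80 were among the genes whose heart difference, 1.01 and -0.83, had the sign opposite to the torpedo one.

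**Figure D3:**
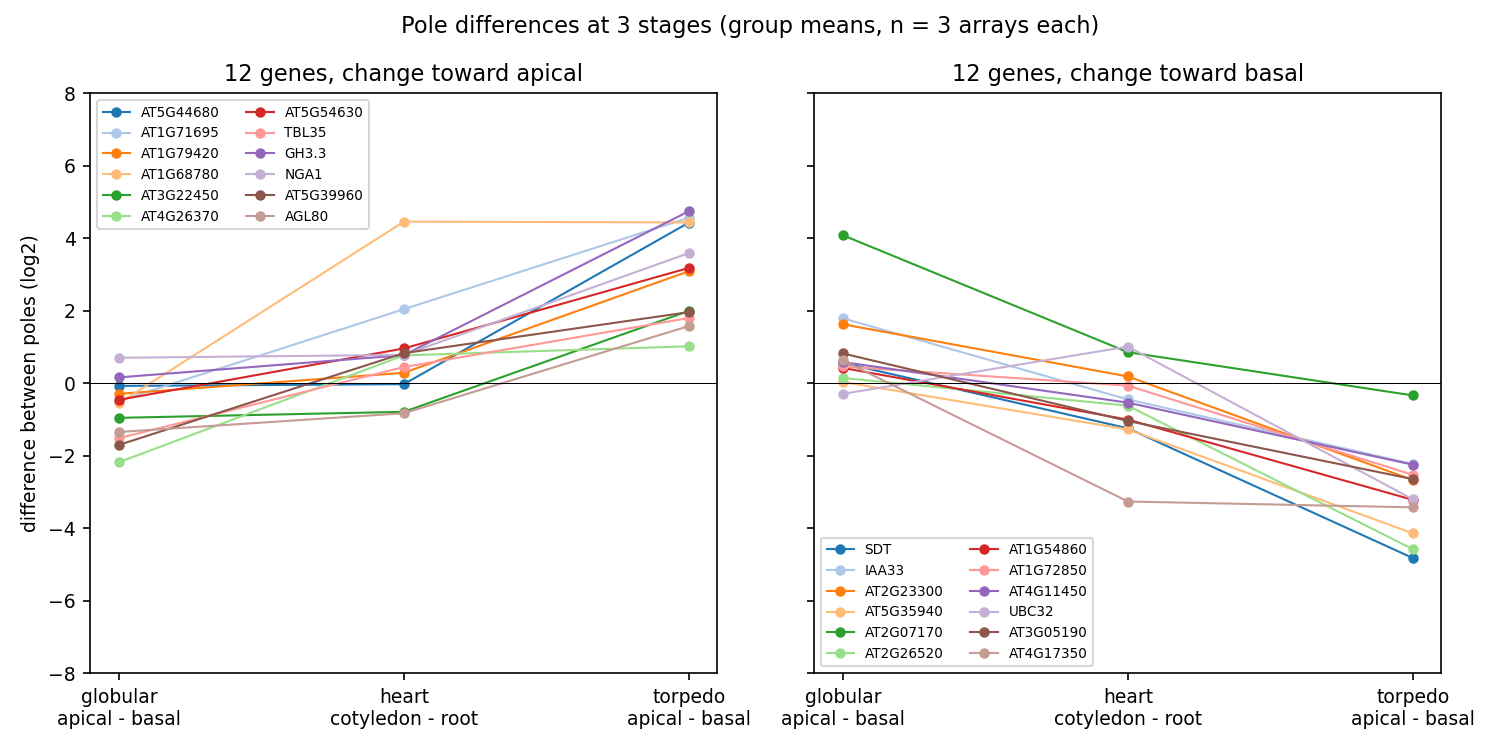
Difference between the poles (log2, group means of 3 arrays) at the globular, heart and torpedo stages, for 12 genes with a change toward apical on the left and 12 with a change toward basal on the right. The heart groups are cotyledon and root captures and were not used to choose the genes. The mean difference of AT1G68780 was 4.46 at the heart and 4.44 at the torpedo stage, with heart cotyledon signals that spread widely (2126 ± 2888, SD). GH3.3 stood at 0.78 at the heart stage.

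Some probe sets had poles that separated at both stages in opposite directions. Torpedo arrays did not overlap with apical above basal at 972 probe sets (5.47%) and apical below basal at 1118 (6.29%), and globular arrays did so at 668 (3.76%) and 871 (4.9%). Torpedo apical was above and globular apical below at 25 probe sets (0.141%), and the reverse held at 35 (0.197%). The same direction at both stages held at 48 probe sets above (0.27%) and 53 below (0.298%). Of the 60 that reversed, 30 map to 1 gene, 12 toward apical and 18 toward basal. Besides IAA33, AT2G23300, TBL35, AT5G39960 and AGL80, they include symbols named here after their values were seen. BRL1, a brassinosteroid receptor of the vascular tissue, had a difference of -1.47 at the torpedo and 1.18 at the globular stage. TET4, a tetraspanin of the plasma membrane, had -1.20 at the torpedo and 1.07 at the globular stage. SERPIN1, a protease inhibitor, had -0.84 in torpedo and 0.95 in globular embryos, and PHOS34, with the opposite layout, had 0.87 in torpedo and -1.21 in globular embryos. None of the 4 passed the threshold (adjusted p 0.792, 0.870, 0.957 and 0.870).

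Gene lists were read beside the whole array, whose median change was -0.07 with 47.059% of probe sets positive. None of the 276 list members passed the threshold in limma, and 22 (7.97%, against 5.17% of all probe sets) had an unadjusted p under 0.05, 13 positive and 9 negative. The lists were chosen with earlier results of these data known, and those by family symbol after the leading genes were seen. Nothing is therefore read from this share. Of the 30 genes listed for cotyledon and leaf polarity, only 9 had a probe set in the gene table. Of these 9, 8 were measured and 7 were positive, with a median of 1.48. NGA1 led, followed by YAB3, a YABBY factor of the abaxial organ side, which had 757, 484 and 439.7 in torpedo apical tissue, against 20.02, 83 and 28 in torpedo basal tissue, and 20.4, 127 and 98.6 in globular apical tissue, against 101, 15.7 and 10.1 in globular basal tissue. The torpedo poles of YAB3 were far apart and the globular poles overlapped, with a change of 2.56 (SE 1.07, adjusted p = 0.900). In the separate torpedo captures, the cotyledon minus root difference of YAB3 was 0.21, against 3.55 between the torpedo poles. PHV, a class III homeodomain factor of the adaxial organ side, had a change of 1.68 (SE 1.18), and NGA2 one of 1.34 (SE 0.82). JAG, a zinc finger factor of blade growth, had 1.31 (SE 1.00), and YAB5 1.17 (SE 1.33). Named after their values were seen, NUB, a relative of JAG, had 1.62 (SE 0.99), and NGA4 was the exception at -0.52 (SE 0.84). With 1 array left out, YAB5 ran from 0.03 (without globular basal replicate 1) to 1.99 (without torpedo basal replicate 5), and JAG from 0.65 (without torpedo basal replicate 6) to 1.97 (without globular apical replicate 3). PHV ran from 0.92 (without torpedo basal replicate 4) to 2.54 (without torpedo basal replicate 6), and NGA4 from -1.05 (without globular basal replicate 3) to -0.05 (without globular basal replicate 2). The median stayed between 1.01 and 2.28 over the 24 other settings. NGA1, YAB3, PHV, JAG, YAB5, BBM, JKD and YUC4 were chosen because an earlier look at these arrays found or sought a torpedo difference in them, so their torpedo values are a description and support nothing. The change holds that torpedo difference. Their changes, and the medians of the cotyledon and root pole lists that hold them, are therefore descriptions too.

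Of the 22 root pole genes listed, only 3 had a probe set in the gene table. Of these 3, 2 were measured and both were negative, with a median of -2.92. BBM, an AP2-domain factor of the PLETHORA group, had 1.92, 3.97 and 1.11 in torpedo apical tissue, against 238, 69.8 and 531 in torpedo basal tissue. Its signals were 154, 67.6 and 22.8 in globular apical tissue, against 6, 2851 and 68.5 in globular basal tissue. The value of globular basal replicate 2 stood far above the other globular arrays. The change was -3.13 (SE 1.89), and it was -5.24 without that array and -1.50 without globular basal replicate 1. JKD, a zinc finger factor that bounds the movement of SHORT-ROOT in the root, had 21.3, 6.22 and 8.12 in torpedo apical tissue, against 92, 78.2 and 125 in torpedo basal tissue, and 80.4, 13.8 and 22.7 in globular apical tissue, against 9.1, 10.1 and 76.1 in globular basal tissue. Its torpedo poles did not overlap, its globular poles did, and its change was -2.71 (SE 0.97, adjusted p = 0.865). In the separate torpedo captures, cotyledon minus root was 0.93 for JKD, opposite in sign to its torpedo pole difference of -2.35. For BBM it was -0.16, against -4.17 between the torpedo poles.

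**Figure D4:**
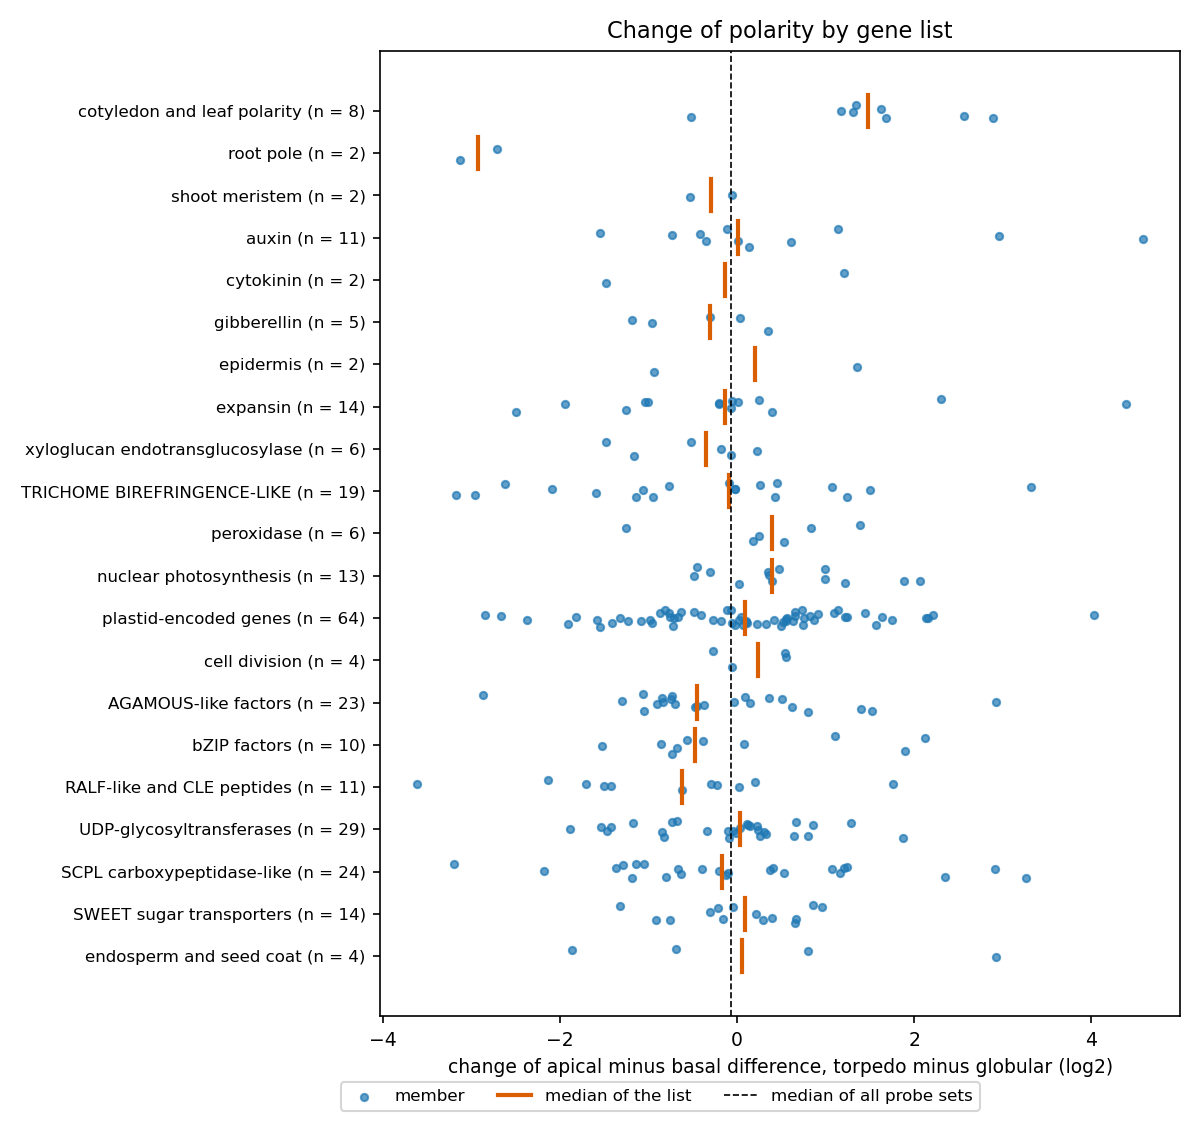
Change of the apical minus basal difference (log2, torpedo minus globular) for each measured member of 21 gene lists. Points are genes, orange bars are list medians, and the dashed line is the median of all probe sets (-0.07). The cotyledon and leaf polarity list lies to the right (median 1.48) and the 2 root pole genes to the left (median -2.92), while most lists straddle the dashed line.

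Hormone genes were split. Of 67 auxin genes listed, only 14 had a probe set in the gene table. Of these 14, 11 were measured, 6 positive and 5 negative, with a median of 0.01. GH3.3 led, and YUC4, a flavin monooxygenase of auxin synthesis, came next. YUC4 had 263, 317 and 203 in torpedo apical tissue, against 20.3, 45.3 and 22.4 in torpedo basal tissue, and 199, 478 and 72.9 in globular apical tissue, against 800, 58.5 and 192 in globular basal tissue, so the torpedo poles separated while the globular poles overlapped, with a change of 2.95 (SE 1.18, adjusted p = 0.900). In the separate torpedo captures, the cotyledon minus root difference of YUC4 was -0.95, opposite in sign to its torpedo pole difference of 2.82. IAA20, an Aux/IAA protein, had a change of -1.54 (SE 1.47). Of the 2 cytokinin response regulators measured, ARR15 had 1.21 (SE 0.97) and RR16 had -1.48 (SE 1.05). Of 5 gibberellin signalling genes 2 were positive and 3 negative, with SPY, a repressor of the pathway, at -1.19 (SE 0.91). The shoot meristem genes CLV3, the stem cell peptide, and LAS, a GRAS-family boundary factor, had changes of -0.05 (SE 0.87) and -0.53 (SE 0.92), and both had a sign that turned under some settings.

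Cell wall families held large single estimates in both directions. Of 14 expansins measured of 19, which loosen cell walls, 5 were positive and 9 negative, with a median of -0.14. EXPA20 had 110.1, 311 and 184 in torpedo apical tissue, against 7.8, 59.97 and 177 in torpedo basal tissue, and 13.1, 25 and 16.6 in globular apical tissue, against 46.1, 601 and 171 in globular basal tissue, with a change of 4.39 (SE 1.25, adjusted p = 0.670). Its torpedo poles overlapped and its globular poles did not. EXPA18 had 2.3 (SE 0.81) and EXPA7 -2.49 (SE 1.02). Of 6 xyloglucan endotransglucosylase genes 5 were negative, with a median of -0.35. Of 19 TRICHOME BIREFRINGENCE-LIKE genes 7 were positive and 12 negative, with a median of -0.09, TBL35 at the top and TBL15 at -2.96 (SE 1.25). Of 6 peroxidases 5 were positive, with a median of 0.39, and Prx37 had 1.39 (SE 1.01).

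Of 13 nuclear photosynthesis genes 10 were positive, with a median of 0.40. PSB27, an assembly factor of photosystem II, had a change of 2.06 (SE 1.09), LHCB4.3, an antenna protein, 1.88 (SE 0.90), and RCA, rubisco activase, 0.99 (SE 1.03). LHCB4.3 averaged 825 ± 294 in torpedo apical and 543 ± 229.7 in torpedo basal tissue, against 124 ± 66.1 in globular apical and 290.2 ± 78.6 in globular basal tissue (SD, n = 3 each). Both poles were thus brighter at the torpedo stage, a difference that the change leaves out. The 64 measured plastid-encoded probe sets were 35 positive and 29 negative, with a median of 0.08. Among them ycf4, for assembly of photosystem I, had 4.03 (SE 1.21) and rpoB, a subunit of the plastid polymerase, -2.37 (SE 0.85).

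The oleosin OLEO3, a protein of seed oil bodies, showed how a stage difference shared by both poles drops out. It averaged 3968 ± 429 in torpedo apical and 3098 ± 1020.2 in torpedo basal tissue, against 113 ± 8.73 in globular apical and 119 ± 63 in globular basal tissue (SD, n = 3 each). Its change of the pole difference was 0.33 (SE 0.85), and its sign turned without globular basal replicate 2. The 3 aurora kinases of mitosis, AUR1, AUR2 and AUR3, had changes of -0.28 (SE 1.15), 0.54 (SE 1.25) and 0.55 (SE 1.03), each with a sign that turned when some single array was left out.

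Other families held members of both signs. Of 11 RALF-like and CLE signalling peptides 8 were negative, with a median of -0.63. RALFL31 had 9.81, 30.7 and 86.3 in torpedo apical tissue, against 81.9, 274 and 62.5 in torpedo basal tissue, and 135, 5.6 and 158 in globular apical tissue, against 1.5, 25.6 and 2.2 in globular basal tissue, so both stages overlapped between the poles, with a change of -3.62 (SE 1.27, adjusted p = 0.865). Of 23 AGAMOUS-like factors 9 were positive and 14 negative, with a median of -0.45, and AGL65, known from pollen, stood at -2.87 (SE 0.82). Of 24 serine carboxypeptidase-like genes 10 were positive and 14 negative, with SCPL27 the lowest at -3.2 (SE 0.99). In limma, 2 members in each direction had an unadjusted p under 0.05. SCPL27 averaged 181 ± 108 in globular apical and 13.5 ± 3.56 in globular basal tissue (SD, n = 3 each), and its torpedo poles overlapped. The 14 SWEET sugar transporters were 7 positive and 7 negative, and the 29 UDP-glycosyltransferases 15 and 14. Of the 10 bZIP factors 4 were positive, with BZIP53, a factor of seed maturation, at 1.90 (SE 0.99). The vascular factor LHW had 1.61 (SE 1.26), and of the 2 epidermal genes CR4, a receptor kinase of the outer layer, had 1.35 (SE 1.12) and GSO1 -0.94 (SE 1.18). With 1 array left out, LHW ran from 0.46 (without torpedo basal replicate 5) to 2.29 (without torpedo basal replicate 4), CR4 from 0.47 (without globular basal replicate 1) to 2.09 (without globular basal replicate 2) and GSO1 from -1.67 (without globular basal replicate 2) to -0.10 (without globular apical replicate 1).

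Each of the 24 ranked genes kept its sign in every other setting in which it was tested. Since they were ranked by this same change in the same arrays, the kept signs support nothing. Leaving out 1 array moved the change by over 1.5 times in 22 of the 69 genes and probe sets described, none of them ranked or called. Besides those whose ranges or turned signs are given above, these were ARR15 (0.54 to 1.66), RR16 (-2.06 to -0.91), IAA20 (-2.48 to -0.38), SPY (-1.63 to -0.69), PSB27 (1.00 to 2.77), RCA (0.48 to 1.59), Prx37 (0.75 to 2.11) and BZIP53 (0.97 to 2.37). Of the lists, cotyledon and leaf polarity kept a positive median in all 24 settings and root pole a negative one, from -4.46 to -1.31. Both lists hold genes chosen after the earlier look at the torpedo poles, so these kept signs support nothing. The nuclear photosynthesis median stayed between 0.06 and 0.78, that of the RALF-like and CLE peptides between -1.50 and -0.23, and that of the xyloglucan endotransglucosylases between -0.63 and -0.11. The medians of 17 of the 24 lists took both signs over these settings, among them the auxin, cytokinin, gibberellin, expansin, AGAMOUS-like, TRICHOME BIREFRINGENCE-LIKE, SWEET, bZIP, plastid-encoded and serine carboxypeptidase-like lists.

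**Figure D5:**
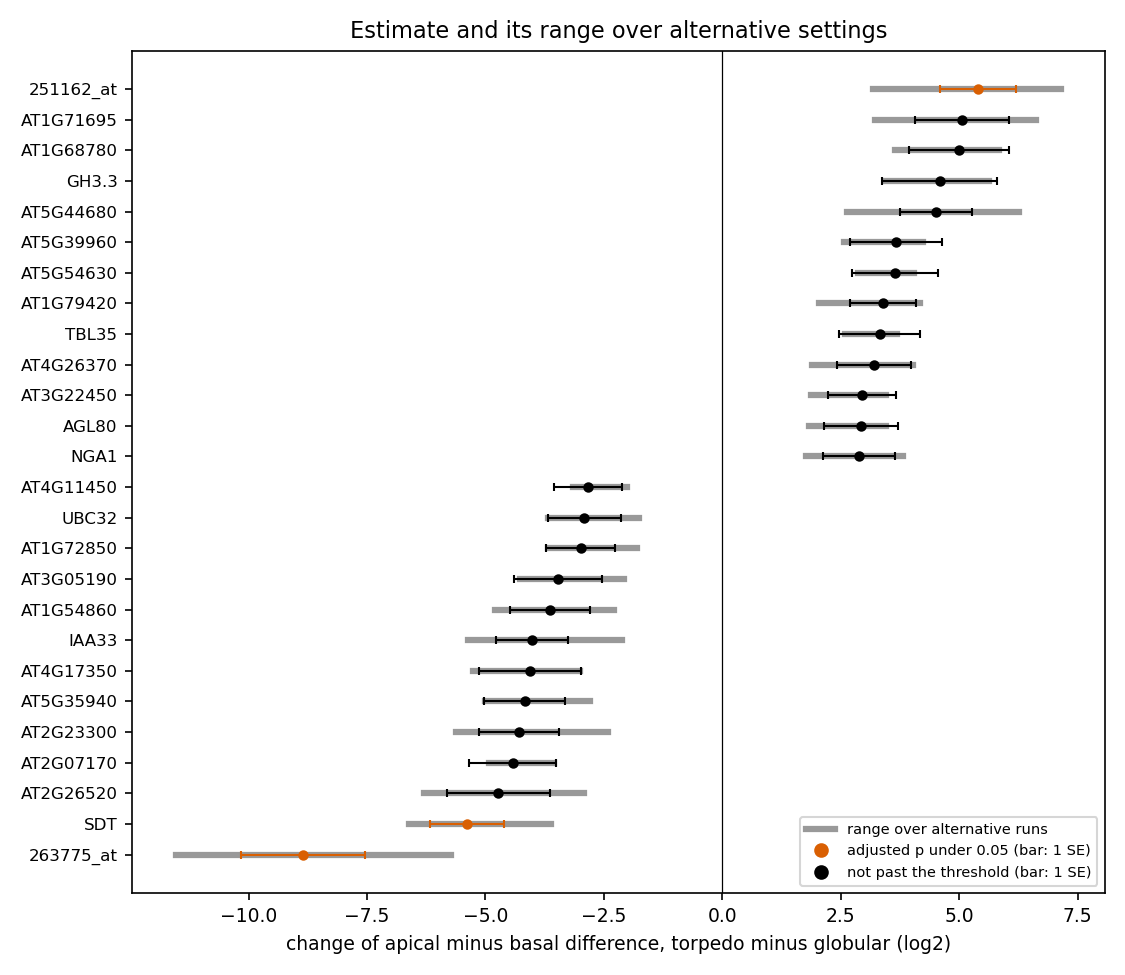
Estimated change of the pole difference (log2, torpedo minus globular) for the 24 ranked genes and the 2 called probe sets without a gene name. Points are estimates with bars of 1 SE, and grey bars span the values under the alternative settings. Orange marks the 3 that passed the threshold. No grey bar crosses 0, and that of 263775_at is the longest.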

How the data were processed

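Total RNA of laser-dissected embryo tissue was labelled with biotin and hybridised to ATH1 arrays. The deposited values are probe set intensities on a linear scale, made by the authors with MAS5, per the submitters' processing notes; its version is not given in the sources used here. Their mean after trimming 2% at each end is about 100 on every array, so no further normalization was applied. Globular values carry 1 decimal and torpedo values carry more; whether both stages had the same settings is not given in the sources used here.

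Groups came from the titles. Of the 22746 probe sets that are not among the 64 controls, the 17784 with an intensity of 50 or more on 2 or more of the 12 arrays entered the test. After log2(intensity + 10), limma 3.58.1 in R 4.3.3 (lmFit with 4 group means, eBayes with an intensity trend) tested the change of the pole difference, 2-sided, with Benjamini-Hochberg adjustment over all 17784 at 0.05. The fit was tested on simulated data. Errors beside signals are SDs and errors beside differences are standard errors.

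Genes were named from the platform's gene table with symbols updated through RefSeq TAIR10.1: 13513 probe sets have 1 gene (13436 matched), and 10323 of those tested do. The values name no genome build, so no coordinates are given. The text names up to 12 single-gene probe sets in each direction that passed, topped up by smallest unadjusted p among those with a group mean of at least 100, and up to 3 members of each list by smallest p. Genes of an earlier torpedo comparison are given as values, as are genes said to be named after their values were seen. The comparison, the genes and the lists were chosen with earlier results of these data known, and the lists by family symbol were added after the leading genes were seen. A probe set with the symbol of an epidermal gene whose locus is formate dehydrogenase was left out of its list.

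The settings also tried were all 25 arrays that have a group, 2 other scalings, other pseudocounts and filters, other variance models, array weights, a replicate block, and each array left out in turn. Leaving out both arrays of low agreement was added after seeing the data.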

Additional observations from a re-analysis of the deposited data

Results flagged for a closer look

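The change of the pole difference between the stages is itself a test of whether the stages differ, and 3 probe sets passed it in limma. SDT had a change of -5.39, with an apical minus basal difference of -4.82 in torpedo and 0.56 in globular embryos (3 arrays in each group). Probe set 263775_at had -8.85, with -3.95 in torpedo and 4.91 in globular embryos. Probe set 251162_at had 5.39, with 4.32 in torpedo and -1.07 in globular embryos. Torpedo arrays of the 2 poles did not overlap in any of the 3, and globular arrays did not overlap in 263775_at. Among all 17784 probe sets, 2090 had no overlap at the torpedo and 1539 at the globular stage. In the heart arrays, which the change did not use, the cotyledon minus root difference was -1.24 for SDT, -0.69 for 263775_at and 0.66 for 251162_at. Each had the sign of the torpedo difference. That sign was shared by 62.378% of the 513 probe sets with a torpedo difference over 2 in size and 45.2% of all probe sets. Heart signals were dim and spread widely. In heart cotyledon and heart root tissue, SDT had 26.6 ± 27.3 and 97.1 ± 78.7, 263775_at 9.73 ± 3.76 and 58.2 ± 94.8, and 251162_at 17.4 ± 17.7 and 5.37 ± 3.93 (SD, n = 3 each). In separate torpedo captures (2 arrays each) cotyledon minus root was -1.14 for SDT, -1.44 for 263775_at and -0.20 for 251162_at, the last of the sign opposite to its difference between the poles, beside 54.8% of all probe sets with the same sign. With 3 arrays in a group, no gap test for single outlying values was run.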

How the results depend on the processing

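The 3 probe sets called became 2 with median centring and with a pseudocount of 50, and stayed 3 without the intensity trend and with robust variance. The count was 1 with all 25 arrays in the fit, 1 with a pseudocount of 1 and 1 with the replicate block, and 263775_at was the one called in each. It was 0 in limma with quantile normalization (909 at an unadjusted p under 0.05), 0 without a filter (1106) and 0 with a filter of 100 on at least 3 arrays (565). Array weights gave 11, which include the 3. Leaving out 1 array gave 0 to 9: 0 in 8 of the 12 runs, 9 without torpedo basal replicate 5 and 9 without globular basal replicate 2 (both include the 3), 1 without globular apical replicate 2, and 1, which is none of the 3, without globular basal replicate 3. Leaving out both torpedo basal replicate 5 and globular basal replicate 3, chosen after seeing the data, gave 0 (1035). The cause of these shifts was not tested. Median centring moved the median of all probe sets to 0.03, against -0.07 without it. Whether replicate numbers pair the arrays is not known. Deviations of same-numbered poles correlated at -0.09 to 0.07 in torpedo and -0.09 to 0.06 in globular embryos. Those of poles with different numbers correlated at -0.10 to 0.08 in torpedo and -0.08 to 0.16 in globular embryos. With 3 arrays in a group, these values cannot settle it.

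Of the 69 genes and probe sets whose change or its adjusted p is given, 63 kept their sign in every setting in which they were tested. CLV3 turned to 0.054 with median centring, 0.16 with a pseudocount of 1, 0.36 with array weights and 0.14 without both arrays. With 1 array left out, CLV3 ran from -0.40 to 0.34, LAS from -1.13 to 0.27 (positive without globular basal replicate 1), OLEO3 from -0.0089 to 0.78 (negative without globular basal replicate 2), AUR1 from -0.99 to 0.37 (positive in 3 runs), AUR2 from -0.27 to 1.86 (negative without globular apical replicate 1) and AUR3 from -0.17 to 1.26 (negative without globular basal replicate 2). Their errors were 0.85 to 1.25, so the sign of these 6 was not resolved. With 3 arrays in a group and a median standard error of 0.99, a change must be several log2 units to pass.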
